A study of Mus musculus with 9 samples.

Results

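Tight junctions seal neighbouring epithelial cells near their apical surface. Claudins and the MARVEL proteins occludin (Ocln) and tricellulin (Marveld2) span the membrane, the adhesion molecule JAM-A (F11r) sits beside them, and plaque proteins such as ZO-3 (Tjp3) and cingulin (Cgn) tie the strands to actin. In mammary epithelium claudins 1, 3, 4 and 7 are the usual strand proteins, and low levels of claudins 3, 4 and 7 define the claudin-low class of mammary tumours. The genes described here are Cldn1, Cldn3, Cldn4, Cldn6, Cldn7, Ocln, Marveld2, F11r, Tjp3 and Cgn, taken by gene symbol, 10 of 24342 genes measured by RNA sequencing.

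The 9 libraries came from mammary tumour cell lines of MMTV-neu transgenic mice on the FVB/N strain, where a mammary tumour virus promoter drives the neu (Erbb2) oncogene in mammary epithelium. The question of the series was how these lines differ with and without Jak1, the kinase that relays interferon and gp130-family cytokine signals to STAT factors. Jak1 was labelled wild type in 5 libraries (lines 45555, 47298, 45566B, 33373 and 33377) and knockout in 4 (lines 45555, 47298, 45566B and 46295), with 1 library for each line and state. Lines 45555, 47298 and 45566B were thus present in both states, with Wt and Cre in their titles, and were grown with puromycin. All lines carry the transgene and were kept as adherent cultures with serum, hydrocortisone, insulin and epidermal growth factor, so no library shows cells within a tumour. No label says that libraries came from separate cultures, so p-values measure only the spread between these libraries, which may in part be technical.

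Values are FPKM, in which fragment numbers are corrected for transcript length and library size, so levels can be set side by side between genes. Summed FPKM per library ran from 567403 to 721751, and 10821 to 11622 genes reached 1 FPKM. The absolute depth is unknown. The value of 1 fragment, read from genes under 0.5 FPKM, put the shallowest library (46295) at 0.418 of the depth of the deepest (45566B wild type). Jak1 itself held 86.7 (wild type) and 74.4 FPKM (knockout) in line 45555, 63.1 and 27.5 in 47298, 16.1 and 14.2 in 45566B, and 19.4 in 33373, 54.6 in 33377 and 23.0 in 46295 knockout. FPKM cover the gene as a whole and would not show the loss of a part of it, so these levels are a weak check of the labels.

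The tumour type of the labels can be set against epithelial markers. Epcam and Cdh1, which make the adhesion molecules EpCAM and E-cadherin, reached 419.8 to 720.1 and 134 to 169 FPKM in the libraries of 45566B, 33373 and 46295. Both were at most 0.58 FPKM in the 4 libraries of 45555 and 47298, and 33377 held 2.36 FPKM of Epcam and 7.02 of Cdh1. The 8 luminal markers summed to 9.65 and 10.1 FPKM in line 45555, where the keratin gene Krt8 held 0.46 (wild type) and 0.64 FPKM (knockout). Other luminal markers were present in 45555, Krt19 at 5.37 and 4.70 FPKM and Gata3 at up to 2.30, and Krt19 was listed at 0 in 45566B and 46295. The 2 libraries of 45555, though from a mammary tumour line, thus held Epcam, Cdh1 and Krt8 at or near 0, but not every luminal marker. In bulk RNA, fewer cells of a type and less RNA per cell cannot be told apart, and this holds for every level below.

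The promoters of the members are shown first, before their levels. RefSeq promoter windows of build GRCm38.p6 (250 bases before to 50 bases after each start site) were found for 10 of 10 members, in 14 windows, since Cldn7, Ocln, Marveld2 and Tjp3 have 2 each. The E-box CAGGTG, read on either strand (CACCTG on the other), is the core that SNAI and ZEB repressors are known to bind. It occurred in the windows of 8 of 10 member genes, all but Cldn1 and Cgn, against 22.6% of 27025 genes. Counted by window, 11 of 14 member windows held it against 20.2% of 32851 windows. The paired windows of Ocln and of Marveld2 overlap and share a site, and the windows were not matched on base composition. The Grainyhead motif AACNGGTT (either strand) was in 1 member, Cgn, against 2.35% of genes. The general promoter element GGGCGG (either strand), known as the GC box, was in 9 of 10 members against 38.2% of genes, so a share above that of all genes is not particular to the E-box. A match shows only that these letters are present, not that a factor binds. The sequences below are from the sense strand of each gene, 5′ to 3′, with the motif in capitals. Positions are those of the first motif base, with +1 as the start site and -1 as the base before it. Cldn4 is shown with its 250 upstream bases because it is among the members that differed most between lines and has a site next to the start. Another Cldn4 site, at +12, lies past the start and thus outside these bases. Cldn1 is shown as a member with no E-box.
Cldn4 upstream, chr5:134946935-134947184, minus strand: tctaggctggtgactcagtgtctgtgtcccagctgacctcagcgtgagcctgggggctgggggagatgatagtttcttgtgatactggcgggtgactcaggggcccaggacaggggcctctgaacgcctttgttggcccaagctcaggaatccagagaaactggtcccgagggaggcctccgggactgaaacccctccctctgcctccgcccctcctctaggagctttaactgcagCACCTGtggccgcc
Cldn1 upstream, chr16:26371840-26372089, minus strand: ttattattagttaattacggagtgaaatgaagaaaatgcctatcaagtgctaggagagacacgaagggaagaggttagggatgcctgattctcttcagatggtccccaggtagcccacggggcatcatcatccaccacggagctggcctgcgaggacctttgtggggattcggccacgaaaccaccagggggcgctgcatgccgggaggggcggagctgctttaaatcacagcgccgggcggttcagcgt
The E-boxes of other members follow with 10 bases on each side, as examples of how their place varies.
Cldn3, +32, chr5:134986235-134986260, plus strand: aagccacaggCAGGTGcaggggcagt
Cldn7, -97, chr11:69965314-69965339, plus strand: tcttcctcttCACCTGgacgaggagg
Cldn7, -57, chr11:69965354-69965379, plus strand: acttccggttCAGGTGagtgtccctt
Ocln, -68, chr13:100552551-100552576, minus strand: aggggctcggCAGGTGggtcccagcg
Marveld2, +17, chr13:100616913-100616938, minus strand: ggcggccgcgCAGGTGagtggggccg
F11r, -122, chr1:171437429-171437454, plus strand: ttcggggttgCACCTGcgtacggtga
Tjp3, -17, chr10:81291269-81291294, minus strand: caaaccctccCACCTGcaggccggcc
The Grainyhead match of Cgn is given the same way.
Cgn, -29, chr3:94786494-94786521, minus strand: cctggggagtAACAGGTTggtgggcggg
The Cldn7, Ocln, Marveld2 and Tjp3 sites above are counted from the second RefSeq start of each gene. That start lies downstream of the first, and the printed sites of these genes all fall past the first start. F11r, whose level varied least of the members above 1 FPKM (13.0 to 132.5 FPKM), holds the E-box too. Whether the motif has a part in the levels was not tested.

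In the genome 2 pairs of members are neighbours. On chromosome 5 of GRCm38, Cldn4 (134945119 to 134946934, minus strand) and Cldn3 (134986214 to 134987472, plus strand) lie 39280 bases apart with 0 protein-coding genes between. On chromosome 13, Ocln (100496507 to 100552718) and Marveld2 (100595957 to 100616971), both on the minus strand, lie 43239 bases apart, again with 0 coding genes between. Cldn6 on chromosome 17 (23679249 to 23682446) lies 138 bases from Cldn9. The remaining members are on chromosomes 16 (Cldn1, 26356642 to 26371841), 11 (Cldn7, 69964779 to 69967885), 1 (F11r, 171437535 to 171464603), 10 (Tjp3, 81273207 to 81291581) and 3 (Cgn, 94760069 to 94786492). All 10 are protein coding. Strand is not known for these libraries, and 3 members overlap another annotated gene. Tjp3 overlaps Apba3 on the other strand, which held 8.33 (45566B wild type) to 22.8 FPKM (47298 wild type). Apba3 was 17.5 FPKM in 33373, where Tjp3 was highest. Wbscr25, antisense to Cldn3, stayed at or below 0.41 FPKM, and Marveld2 contains a small nuclear RNA gene.

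The claudins that usually build mammary tight junctions separated the libraries into high and near-zero levels. Cldn3, a barrier-forming claudin, stood at 374 (wild type) and 335 FPKM (knockout) in 45566B, 368 in 46295 knockout and 205 in 33373 wild type. It was 5.64 in 47298 knockout, 1.90 in 47298 wild type, 1.35 in 33377 wild type, and 0.25 and 0.22 in 45555 wild type and knockout. The lowest of the first 4 libraries was thus far above the highest of the other 5, and each set holds both Jak1 states. Cldn4, a claudin that also limits sodium passage, followed the same division. Its levels were 332 FPKM in 33373, 211 in 46295, and 160.2 and 135 in 45566B wild type and knockout. The other 5 libraries lay between 0.098 (45555 wild type) and 0.77 FPKM (33377). Cldn7, a claudin found along the lateral membrane as well as in strands, reached 372 and 310.0 FPKM in 45566B wild type and knockout, 206 in 46295 and 163 in 33373. It was 0.65 FPKM in 33377, 0.15 and 0.40 in 47298 wild type and knockout, and 0.067 and 0.11 in 45555. Line 33373 led for Cldn4 but was the lowest of the 4 high libraries for Cldn3 and Cldn7.

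Cldn1, needed for the barrier of skin, had another order. Its level was 154.9 FPKM in 33373 wild type, 17.3 in 45566B wild type, 9.80 in 45566B knockout and 7.48 in 46295 knockout. It was 3.02 FPKM in 45555 wild type, and 0.35 to 0.55 in 45555 knockout, both libraries of 47298 and 33377. 1 library, 33373, thus stood far above the rest, and 45555 wild type held more Cldn1 than Cldn3, Cldn4 or Cldn7. Cldn6, a claudin of embryonic epithelia, was listed at 0 in 8 libraries and at 0.025 FPKM in 33373, and it did not reach the filter of any test.

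**Figure D1:**
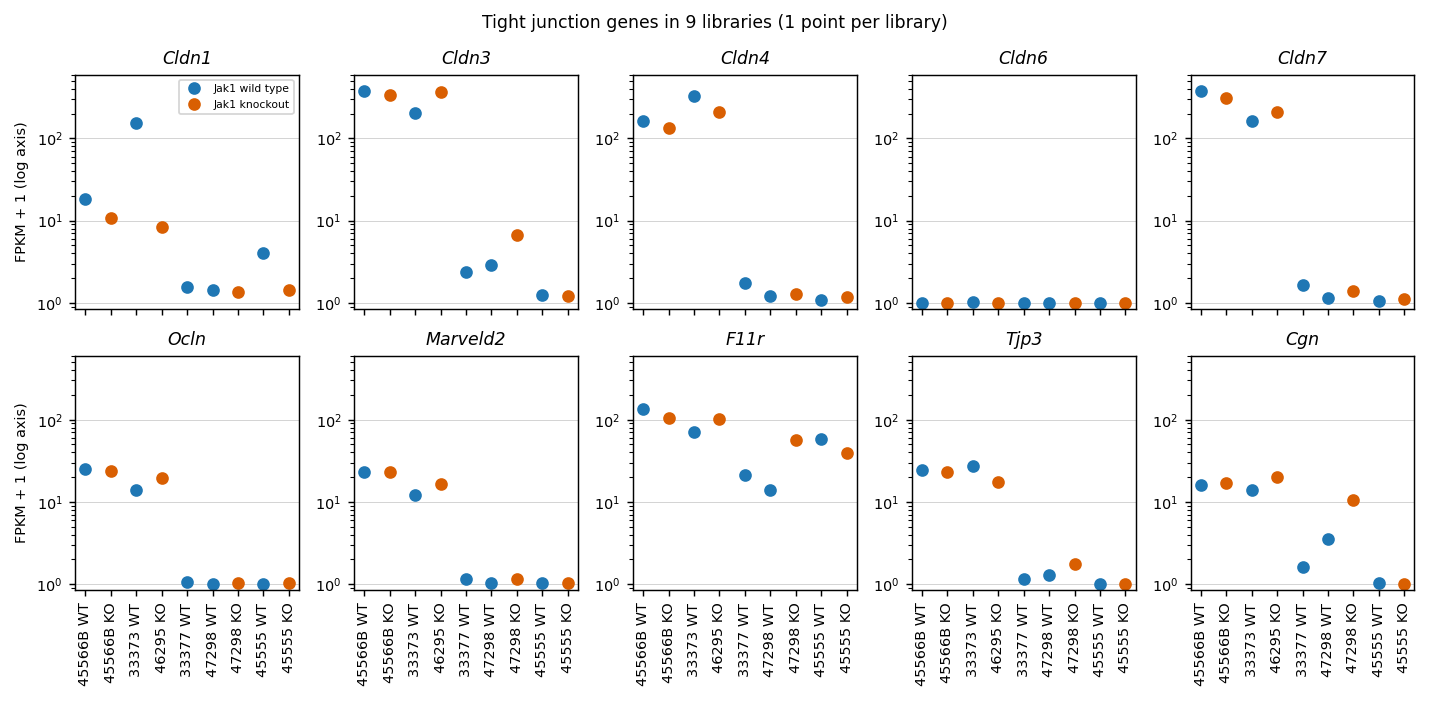
Each panel plots 1 gene, with FPKM + 1 on a log axis against the 9 libraries (WT, Jak1 wild type; KO, Jak1 knockout; 1 point per library, no error bars). The 4 libraries on the left are high for Cldn3, Cldn4, Cldn7, Ocln, Marveld2 and Tjp3 and the 5 on the right near the floor, while F11r is present in all 9 and Cldn6 in none above 0.025 FPKM.

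Both MARVEL protein genes followed the division of Cldn3, Cldn4 and Cldn7, at lower levels. Ocln, which makes occludin of ordinary 2-cell contacts, was 24.5 and 22.8 FPKM in 45566B wild type and knockout, 18.6 in 46295 and 12.8 in 33373. In the other libraries it was listed at 0 in 45555 and 47298 wild type and was at most 0.074 FPKM (33377). Marveld2, which makes tricellulin of 3-cell contacts, stood at 22.2 and 22.1 FPKM in 45566B, 15.6 in 46295 and 11.2 in 33373. It did not exceed 0.17 FPKM elsewhere. Both genes had the same order over the 4 high libraries. At 0.026 FPKM in the wild-type and 0.020 in the knockout library of 45555, the 2 values of Marveld2 stood in a ratio of 0.749, against 0.747 for what 1 fragment was worth in these libraries. Differences between libraries at this level therefore cannot be read.

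F11r, the receptor-like adhesion molecule that recruits polarity proteins to young contacts, was the one member at 1 FPKM or more in all 9 libraries. It reached 132.5 and 104 FPKM in 45566B wild type and knockout, 99.9 in 46295 and 69.1 in 33373. Next came 57.9 in 45555 wild type, 56.0 in 47298 knockout, 37.9 in 45555 knockout, 20.5 in 33377 and 13.0 in 47298 wild type. Neighbours in this order, such as 33373 and 45555 wild type, differ by less than the 2 libraries of line 47298 do.

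The plaque proteins were not alike. Tjp3, a ZO scaffold restricted to epithelia, held 26.2 FPKM in 33373, 23.1 and 21.9 in 45566B wild type and knockout and 16.2 in 46295. In the others it ran from a value listed at 0 (45555 wild type) to 0.78 FPKM (47298 knockout). Cgn, which links the plaque to myosin and to regulators of RhoA, was 19.3 FPKM in 46295, 15.9 and 15.1 in 45566B knockout and wild type and 13.0 in 33373. It differed from Tjp3 in line 47298, with 9.55 FPKM in knockout and 2.57 in wild type, while 33377 had 0.62 and 45555 had 0.022 and 0.008. Counting members at 1 FPKM or more, 45566B (both states), 33373 and 46295 had 9 of 10, 47298 had 3 in each state, 33377 and 45555 wild type had 2, and 45555 knockout had 1.

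The make-up of the claudin family differed between libraries along with its amount. The 27 claudin genes measured summed to 986 and 838 FPKM in 45566B wild type and knockout, 883 in 33373 and 849.6 in 46295. The sum was 43.5 and 30.3 in 45555, 27.4 and 25.3 in 47298 and 19.7 in 33377. The 5 member claudins made up 93.3 to 96.8% of the sum in the first 4 libraries and 3.22 to 26.4% in the other 5. Cldn3 led in 45566B wild type (37.9%, with Cldn7 at 37.8%) and in 46295 (43.3%), whereas Cldn4 led in 33373 (37.6%), where Cldn1 took 17.5%. In the libraries with little claudin the leading gene was Cldn12, which lacks the usual PDZ-binding tail, at 59.8 to 63.4% in 47298, 33377 and 45555 knockout. Its own level was 12.3 to 26.1 FPKM over all 9 libraries. Cldn15, a cation-pore claudin best known in intestine, led in 45555 wild type (17.5 FPKM, 40.3%). It stood at 4.53 FPKM in 45555 knockout, 6.92 in 47298 wild type, 0.027 in 47298 knockout and at most 0.10 elsewhere. The values of Cldn34c1 are uncertain, since this gene has near-identical copies.

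**Figure D2:**
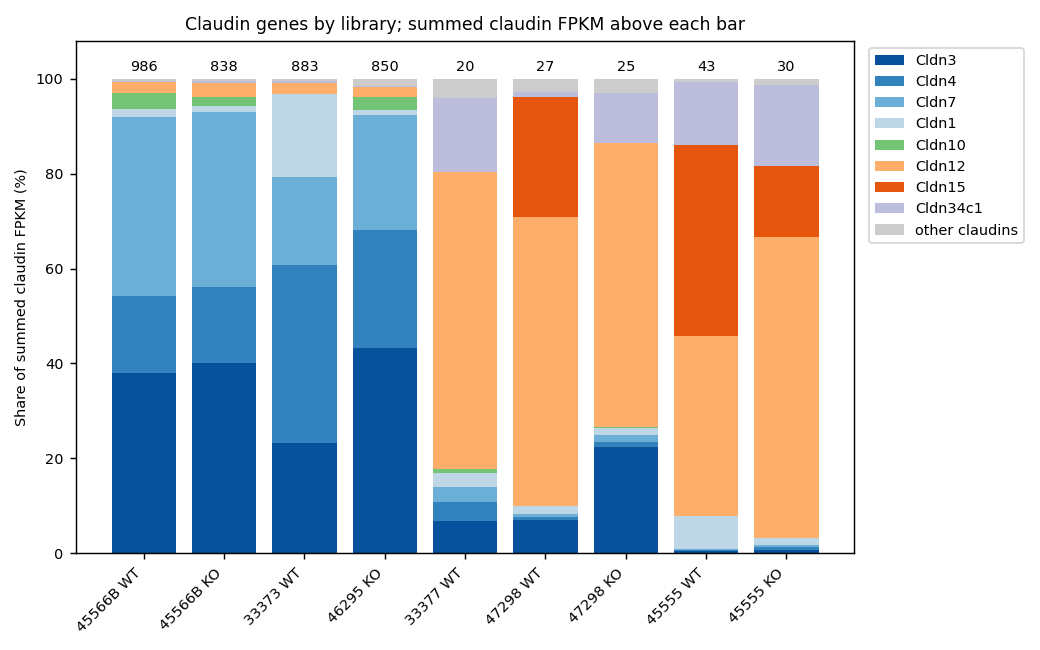
Stacked bars give the share of each claudin gene in the summed claudin FPKM of a library, in percent, with the sum above each bar. Cldn3, Cldn4, Cldn7 and Cldn1 fill most of the 4 bars on the left, whose sums are 838 to 986 FPKM, and Cldn12 is the largest part in 4 of the 5 bars on the right, whose sums are 19.7 to 43.5.

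Lines were compared within the 6 libraries of 45566B, 45555 and 47298, with 2 libraries per line and the Jak1 state as a covariate. The test was limma on log2(FPKM + 1), and calls are at an adjusted p below 0.05 over 12063 genes. These lines differ in members that the levels above already show. Against 45555, 45566B was higher in 8 of the 9 members that passed the filter of 1 FPKM on the mean. Of all genes tested 8.85% were called higher and 8.05% lower. The filter favours genes high in 1 line, so this count has no weight of its own. The largest difference was that of Cldn7, 8.29 on the log2 scale (SE 0.23, adjusted p = 0.00323), followed by Cldn3 with 8.17 (SE 0.41, adjusted p = 0.00454) and Cldn4 with 7.01 (SE 0.22, adjusted p = 0.00323). Ocln, Marveld2 and Tjp3 differed by 4.60, 4.50 and 4.55, with SEs of 0.25 to 0.27 and adjusted p from 0.00487 to 0.00535. Cgn differed by 4.02 (SE 0.49, adjusted p = 0.0174) and Cldn1 by 2.54 (SE 0.41, adjusted p = 0.0298). F11r missed the threshold, at 1.31 with an interval of -0.70 to 3.32 (adjusted p = 0.277). The spread in these fits is that between the 2 states of a line, after their mean difference. For F11r, knockout minus wild type was 2.03 in 47298, -0.60 in 45555 and -0.35 in 45566B. Leaving out 1 library gave 0.59 to 2.03 for F11r in 45566B against 45555.

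Against 47298, 45566B was higher in 7 of 9 members, where 8.48% of all genes were called higher and 6.5% lower. Cldn7 differed by 8.07, Cldn4 by 6.89 and Cldn3 by 6.34 on the log2 scale, with adjusted p of 0.00359, 0.00359 and 0.00676. Ocln (4.60), Marveld2 (4.41), Tjp3 (3.95) and Cldn1 (3.33) were also called, with adjusted p between 0.00576 and 0.0213. Cgn was 1.42 higher (SE 0.49, adjusted p = 0.124) and F11r 2.07 higher (SE 0.73, adjusted p = 0.132), and neither was called. Both comparisons rest on few libraries. Leaving out either library of 45566B or of 45555 left 0 members and 0 genes called in both comparisons, while the differences kept their sign. The adjusted p of the members called then reached at most 0.257 (Cldn1, against 45555) and 0.233 (Cldn1, against 47298). Leaving out a 47298 library left 7 or 9 members called.

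Between 47298 and 45555 the test called 0 members and 0% of all genes (1277 genes higher and 1272 lower at an unadjusted p under 0.05). Cgn was 2.60 higher in 47298 (SE 0.49, adjusted p = 0.167) and Cldn3 1.83 higher (SE 0.41, adjusted p = 0.176). Without 47298 wild type both were called, with adjusted p of 0.0322 and 0.0356. The remaining intervals include 0: the value was 0.13 for Cldn4 (-0.49 to 0.74), 0.23 for Cldn7 (-0.41 to 0.87), -0.01 for Ocln (-0.69 to 0.67), 0.09 for Marveld2 (-0.59 to 0.78), 0.59 for Tjp3 (-0.15 to 1.34), -0.79 for Cldn1 (-1.92 to 0.33) and -0.76 for F11r (-2.77 to 1.25). The 3 line comparisons share libraries and are not independent.

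**Figure D3:**
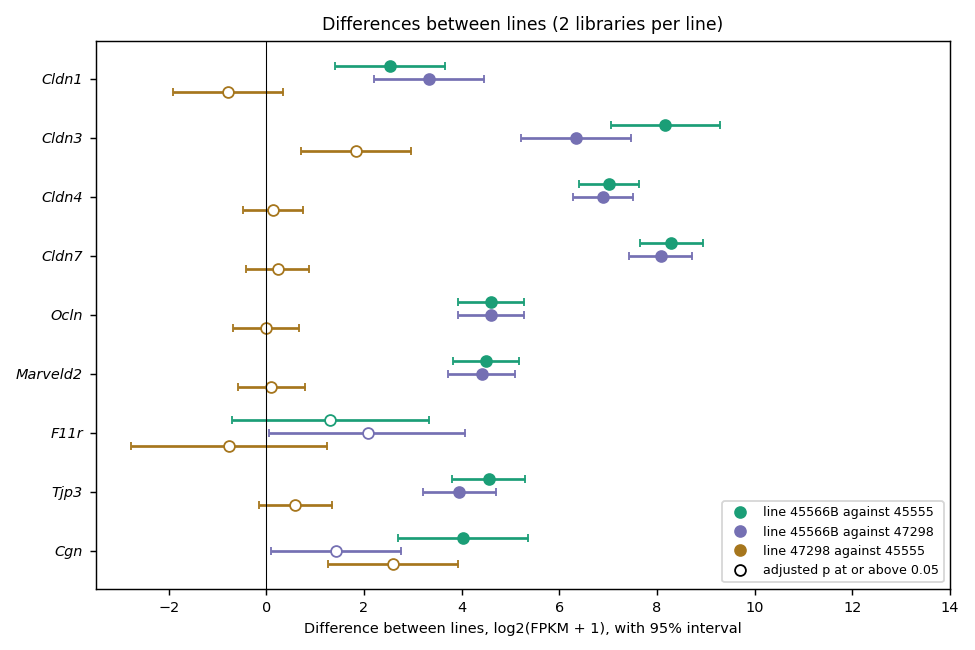
Points give the difference between lines for 9 members on the log2(FPKM + 1) scale and bars the 95% interval of the limma fit (2 libraries per line, 6 in the fit); open points have an adjusted p of 0.05 or more. Cldn7, Cldn3 and Cldn4 lie at 6.34 to 8.29 in both comparisons with 45566B, and F11r is open in all 3.

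By Jak1 state the members showed no called difference. Over the 3 lines present in both states, with the line as a block, limma called 0 of 9 members and 0% of 12063 genes (182 genes higher and 224 lower in knockout at an unadjusted p under 0.05). Cldn1 had the smallest p of the members, with a difference of -0.77 (SE 0.34, interval -1.69 to 0.15, adjusted p = 0.762). It was the one member lower in knockout in all 3 lines, where 13.3% of genes were, and 0 members were higher in all 3, where 14.3% of genes were. The interval of the difference was -0.52 to 0.48 for Cldn4, -0.50 to 0.55 for Cldn7, -0.55 to 0.55 for Ocln, -0.50 to 0.61 for Marveld2 and -0.48 to 0.74 for Tjp3. It was wider for Cldn3 (-0.58 to 1.25), Cgn (-0.55 to 1.63) and F11r (-1.28 to 2.00).

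Within single lines there is 1 library per state, so a difference has no replicate check. In line 45555, Cldn1 was 3.02 FPKM in wild type and 0.45 in knockout, a difference of -1.47 on the log2(FPKM + 1) scale. It was 1 of the 2 members with a mean of 1 FPKM in that line to be at least 2-fold lower, where 7.3% of genes were, and 0 were 2-fold higher, against 3.51% of genes. F11r, the other, differed by -0.60. In line 47298 all 3 members at the filter were at least 2-fold higher in knockout, F11r by 2.03, Cgn by 1.56 and Cldn3 by 1.20, against 9.1% of genes, and 0 were 2-fold lower, against 11.8%. In line 45566B, where 9 members could be judged, 0 were 2-fold higher (0.988% of genes were) and 0 were 2-fold lower (2.52%). The largest difference there was that of Cldn1, -0.76, from 17.3 to 9.80 FPKM.

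**Figure D4:**
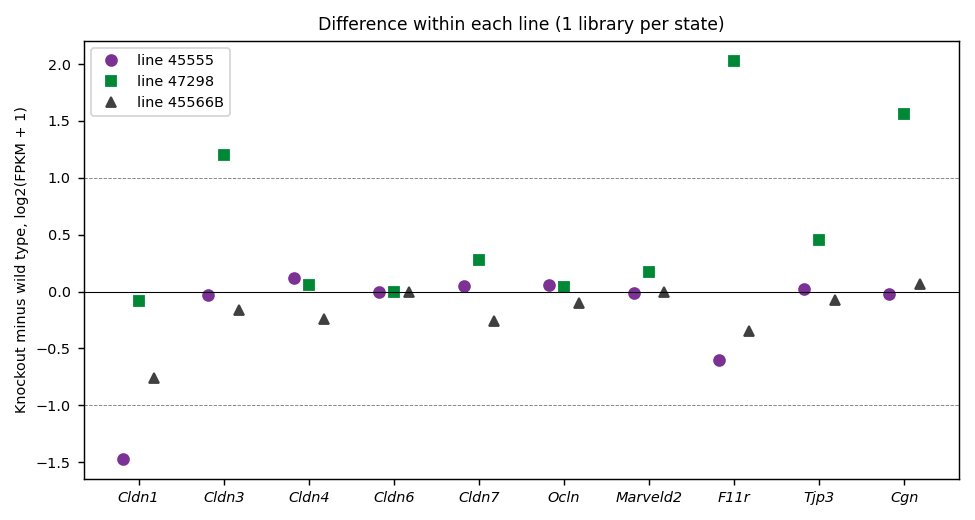
Points give knockout minus wild type on the log2(FPKM + 1) scale for each member in lines 45555, 47298 and 45566B (1 library per state, no error bars), with dashed lines at a 2-fold difference. F11r, Cgn and Cldn3 of line 47298 lie above the upper line and Cldn1 of line 45555 below the lower one.

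Markers of other cell types also differed between the libraries of line 47298. The 8 fibroblast and mesenchymal markers summed to 7248 FPKM in its wild-type library and 1519 in its knockout library, with 6 lower and 2 higher in knockout. The 2 higher ones were Dcn, at 12.2 and 27.3 FPKM, and Lum, at 0.15 and 0.24. The collagen gene Col1a1 was 1728 and 65.5 FPKM. The 4 adipocyte markers summed to 904.8 and 15.6 FPKM, and the 8 luminal markers to 103.5 and 447, of which Krt18 gave 52.6 and 250.3. Of the luminal markers 6 were higher and 2 lower in knockout, Krt19 among the lower at 5.97 and 0.31 FPKM. Epcam stayed at 0.32 and 0.58 FPKM. In line 45555, where Cldn1 was lower in knockout, the mesenchymal sum was 6982 and 6969 FPKM, but 7 of its 8 markers were lower in knockout, Pdgfra at 143.3 and 41.3 FPKM. The 6 basal and myoepithelial markers of this line summed to 179.2 and 1296 FPKM, nearly all of it Acta2. In 45566B the mesenchymal sum was 21.2 and 89.7 FPKM, nearly all of it Vim (20.2 and 88.5 FPKM). Of its markers 3 were higher, 3 lower and 2 equal in knockout. The part of these marker differences in the values of Cldn3, Cgn and F11r in 47298 and of Cldn1 in 45555 and 45566B was not tested.

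The set of 5 libraries that the series groups as knockout against wild type lines holds 45566B, 33373 and 33377 as wild type and 45566B and 46295 as knockout. Line 45566B gives 1 library to each state, and the fit has no block, so it treats these libraries of the same line as independent. Here too limma called 0 members and 0% of 11838 genes (58 higher and 157 lower at an unadjusted p under 0.05), and each tested member had an adjusted p of 0.999. The differences were 2.64 for Cldn3, 2.45 for Cldn7, 1.90 for Cldn4, 1.58 for Ocln, 1.50 for Marveld2, 1.37 for Cgn, 1.12 for Tjp3, 0.81 for F11r and -0.78 for Cldn1. Several turned on wild-type line 33377, which held 0.65 FPKM of Cldn7. Without it Cldn4 was -0.45 and Tjp3 -0.37, and without 33373 Cldn1 was 0.85. Leaving out both 33377 and 33373 left 45566B as the only wild-type line. The values were then -0.09 for Cldn3, -0.56 for Cldn7, -0.24 for Ocln, -0.24 for Marveld2, -0.28 for Tjp3 and -0.38 for F11r. Cldn1 was -0.93, while Cldn4 (0.08) and Cgn (0.2) stayed above 0. Cgn was the one member for which both knockout libraries lay above all 3 wild-type libraries, where 7.67% of genes did so, and 0 members lay below, against 6.43%. The mesenchymal markers summed to 2500 FPKM in 33377, 612.6 in 33373, and 21.2 to 89.7 in the other 3 libraries, whose part in these values was not tested.

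Other genes of the junction were divided by role. Their counts stand beside 8.85% of all genes higher and 8.05% lower against 45555, and 8.48% and 6.5% against 47298. Many passed the filter through 45566B alone, where they are high, so counts of these lists carry no weight of their own either. Of 9 further membrane proteins tested in 45566B against 45555, 5 were higher and 2 lower, with a median of 3.76 against -0.01 for all genes. Lsr and Ildr1, the angulins that recruit tricellulin to 3-cell contacts, were among them. Lsr was 158.9 and 142 FPKM in 45566B, 93.1 in 46295, 74.4 in 33373 and at most 1.52 elsewhere, and it was 6.89 higher in 45566B (adjusted p = 0.00323). Ildr1 was 6.27 higher (adjusted p = 0.00325) and Crb3, the apical Crumbs protein, 4.30 higher (adjusted p = 0.00515). Marveld1, a MARVEL protein found outside junctions as well, went the other way, with 22.4 and 21.5 FPKM in 45555 and 0.19 and 0.20 in 45566B (-4.26, adjusted p = 0.0061). Against 47298 the counts were again 5 higher and 2 lower of 9.

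Of the 24 other claudin and claudin-domain genes measured, 5 were tested and 1 was higher against 45555, with a median of 0.45. This was Cldn10, a pore-forming claudin, with 33.0 and 15.2 FPKM in 45566B, 23.9 in 46295 and at most 0.17 elsewhere, which includes 33373. Against 47298, 2 of 5 were higher, Cldn10 and the claudin-domain gene Cldnd1 (0.95, adjusted p = 0.0483). Cytoplasmic plaque proteins were mixed, with 3 higher and 4 lower of 15 against 45555 (median -0.05) and 2 higher and 1 lower against 47298 (median 0.16), counts of which the 1 lower and the 2 higher are near the shares of all genes. Inadl, the PATJ scaffold, was 3.48 higher against 45555 (adjusted p = 0.0109) and Magi1 1.66 higher (adjusted p = 0.0174). Amotl2, an angiomotin, was -3.17 (adjusted p = 0.0147) and the multi-PDZ protein gene Mpdz -2.08 (adjusted p = 0.0236). Tjp1, the ZO-1 gene, which is expressed outside epithelia too, held 15.4 to 78.4 FPKM over all 9 libraries, unlike Tjp3.

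Polarity complexes, which place the junction along the cell side, had 4 higher and 0 lower of 15 in both comparisons, beside 8.85% and 8.48% of all genes higher, with medians of -0.10 and 0.20. The 4 were Mpp5 (PALS1), Llgl2, Pard6b and the atypical protein kinase gene Prkcz, at 2.23, 2.34, 3.28 and 1.83 against 45555 (adjusted p between 0.0119 and 0.0295). Proteases and inhibitors that act at epithelial surfaces had 6 higher and 0 lower of 7 against 45555 (median 4.44) and 5 of 7 against 47298 (median 3.42), beside the same shares. St14, Spint1 and Tmprss2 were near 0 in 45555 and passed the filter through 45566B. Among them St14, the matriptase gene, was 7.03 higher (adjusted p = 0.00494) and its inhibitor gene Spint1 6.81 higher (adjusted p = 0.00353) against 45555. In the comparisons by Jak1 state and in 47298 against 45555, 0 genes of these lists were called, as of all genes.

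Regulators known to act on junction genes were read in every library. Grhl2, a Grainyhead factor that activates claudin and E-cadherin genes, was 24.0 and 25.0 FPKM in 45566B wild type and knockout, 21.0 in 46295 and 15.4 in 33373, and at most 0.094 in the other 5. Ovol2, a repressor of Zeb1, was 8.02 and 8.06 in 45566B, 10.0 in 46295, 3.48 in 33373 and at most 0.039 elsewhere. The splicing factor gene Esrp1 ran from 22.9 to 72.2 FPKM in the 4 libraries and to at most 0.24 in the others. Against 45555, 11 of 13 tested epithelial regulators were higher in 45566B and 1 lower, and against 47298, 10 and 1. Of all genes 8.85% were higher and 8.05% lower against 45555, and 8.48% and 6.5% against 47298. Grhl2, Ovol2 and Esrp1 passed the filter through 45566B, so these counts carry no weight of their own.

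Factors associated with epithelial-mesenchymal transition did not all share one pattern. Zeb1 was 0.12 and 0.046 FPKM in 45566B and 0.021 in 46295, but 4.88 in 33373. It was 19.0 and 13.5 in 45555, 32.3 and 9.91 in 47298 and 7.12 in 33377. Zeb2 was 4.56 FPKM in 33373, at most 0.24 in 45566B and 46295, and 8.56 to 13.8 in the other 5. Line 33373 thus held both Zeb genes together with 332 FPKM of Cldn4 and 154.9 FPKM of Cldn1, and also 416 FPKM of the mesenchymal filament gene Vim. Snai1 was 31.9 FPKM in 47298 wild type and 0.85 in 47298 knockout, but 26.4 and 35.7 in 45555, 24.9 in 33377, 2.45 in 33373, 6.34 in 46295, and 1.80 and 3.67 in 45566B. Snai2 was 35.0 and 32.9 FPKM in 45555, 17.7 and 6.2 in 47298 wild type and knockout, and 8.9 in 33377. Its level was 2.28 FPKM in 33373, 0.175 and 0.183 in 45566B and 0.065 in 46295. Zeb1, Zeb2 and Snai2 were thus each higher in every library low in claudins than in any library high in them. Twist1 levels overlapped between the libraries high and low in claudins. It was 40.8 and 42.2 FPKM in 45566B, 25.0 in 46295 and 12.5 in 33373. In the others it was 33.1 and 34.7 in 45555, 34.6 and 1.45 in 47298 and 99.2 in 33377. Tcf4 was lowest in 33373 (6.27) and 47298 knockout (7.67), between 11.2 and 14.7 in 45566B and 46295, and 23.4 to 38.3 in the others. Of 9 such factors tested, 0 were higher and 4 lower in 45566B against 45555 (median -3.38), where 8.05% of all genes were lower. Against 47298, 0 were higher and 3 lower (median -2.70), where 6.5% of all genes were lower. Snai2 (-4.89, adjusted p = 0.00935), Zeb1 (-3.97, adjusted p = 0.0145) and Zeb2 (-3.38, adjusted p = 0.00626) were among the 4. These genes were at most 0.18 FPKM in 45566B and passed the filter through 45555 and 47298. The counts of this list thus carry no weight of their own.

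**Figure D5:**
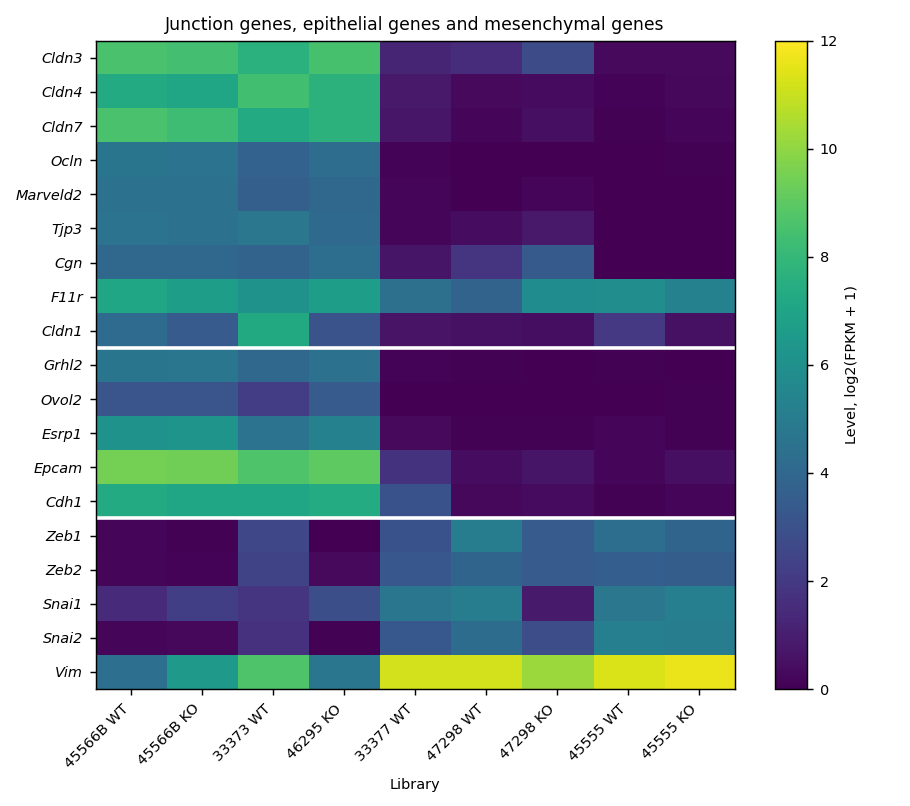
Colour gives the level on the log2(FPKM + 1) scale of 9 members (top block), epithelial genes (middle) and genes of mesenchymal state (bottom) in each of the 9 libraries. Line 33373 is high in the members and also shows Zeb1 (4.88 FPKM), Zeb2 (4.56 FPKM) and Vim (416 FPKM).

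Other marker lists moved with the same libraries. The 8 mesenchymal markers summed to 1519 to 7248 FPKM in 45555, 47298 and 33377, to 612.6 in 33373 and to 21.2 to 89.7 in 45566B and 46295. Against 45555, 0 of 7 tested were higher and 5 lower in 45566B, and against 47298, 0 and 6. Luminal markers had 5 of 8 and 4 of 8 higher and 0 lower. Counts of the marker lists stand beside 8.85% of all genes higher and 8.05% lower against 45555, and 8.48% and 6.5% against 47298. Epcam and Cdh1 were near 0 in 45555 and 47298 and passed the filter through 45566B. The marker counts thus carry no weight of their own. The basal list had 1 higher and 1 lower of 2 against 45555 and 1 higher and 0 lower against 47298. Of the adipocyte list 0 of 3 were called in both, although it summed to 311.3 to 904.8 FPKM in 45555 and 47298 wild type and to at most 36.3 in the rest. The endothelial markers summed to at most 6.53 FPKM, with 0 higher and 1 lower of 1 against 47298. The immune list summed to 0.43 to 106.1 FPKM, nearly all of it Cd68 (106 FPKM in 46295), which was called higher in 45566B in both comparisons. The part of these cell types in the members' values was not tested. The mouse Erbb2 gene, whose rat version drives the tumours, was 7.84 and 9.47 FPKM in 45555, 37.6 and 243 in 47298, 335 and 263.5 in 45566B, 159.8 in 33373, 19.7 in 33377 and 314 in 46295. The sources used here do not say how reads of the transgene were assigned.

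Likeness of pattern was measured as the mean absolute difference of centred log2(FPKM + 1) values over the 9 libraries, for 12198 genes. For Ocln the closest gene was Grhl2, at 0.08, and the next was its neighbour Marveld2, at 0.11. For Marveld2 the closest was Ocln, followed by Adgrg3 at 0.14. The closest to Tjp3 was Marveld3, another MARVEL gene, at 0.20, with Marveld2 at 0.31. Cldn4 and Cldn7 were nearest to each other among members, at 0.48, and Cldn7 and Cldn3 differed by 0.55, although Cldn3 and Cldn4 are the pair that share a locus (0.69). Outside the members, Slc15a2 was closest to Cldn4 (0.32), Csf3 to Cldn7 (0.40), Plet1 to Cldn3 (0.48) and Tmprss4, a surface protease gene, to Cldn1 (0.54). For Cgn the closest was Shtn1 (0.15) and for F11r Zbtb18 (0.26). The measure favours genes with a like range of levels. For F11r the closest member was Cldn1, at 1.09 and only the 8427th of all genes. For Cldn1 the closest member was Tjp3, at 0.95 and the 54th of all genes.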

How the data were processed

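The authors deposited FPKM per gene for 9 RNA libraries, made with cutadapt, TopHat2 2.1, Cufflinks 2.2 and Cuffnorm on mm10, per the submitters' processing notes; no order is stated. The sources used here give neither annotation nor scaling option. Of 2 deposited tables the smaller repeats 4 libraries with identical values. From 24346 genes, 4 rows with repeated names were left out. The columns of 33373 and 33377 lack a suffix that the other 7 carry, so a separate run of the authors' scaling cannot be told apart from line.

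Genes averaging 1 FPKM or more over a comparison were tested with limma 3.58.1 (R 4.3.3) on log2(FPKM + 1), two-sided, with variances that follow the mean, and adjusted by Benjamini-Hochberg over all genes tested. The pseudocount of 1 understates differences of low genes. In the pairs comparison the line was a block, and libraries of a line deviated together (correlations of 0.70, 0.399 and 0.804). The fits were tested on simulated data. All members were described, and up to 4 genes of each list by smallest p, with a fixed set of regulators and the 3 genes most like each member. Cldn12, Cldn15, Twist1, Tcf4 and the single markers beyond that rule were named after their values were seen. Members and lists were chosen with earlier results of these data known.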

Additional observations from a re-analysis of the deposited data

Results flagged for a closer look

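Cldn6 in 33373 stood apart from the other 4 wild-type libraries, since its gap to the nearest divided by the range of the group was 1.0. The level was 0.025 FPKM against values listed at 0, a level at which differences between libraries cannot be read. Of 19 groups of libraries checked in this way, chance flags about 1 in 20.

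F11r differed between knockout and wild type in opposite directions in 2 lines, by -0.60 in 45555 and by 2.03 in 47298 on the log2(FPKM + 1) scale. Each line has 1 library per state, and the difference between the lines was not tested.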

How the results depend on the processing

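Each comparison was repeated with a pseudocount of 0.1 FPKM, without the filter, with each library scaled to the same sum or by median ratios, and without each library or line. Scaling to the same sum moved the median of all genes by 0.134 in the pairs comparison and 0.159 in 45566B against 45555. Cldn4 of the pairs comparison turned to 0.19 with the smaller pseudocount and to 0.07 with this scaling. Leaving out each line in turn gave 0 to 6 genes called, of which 0 were members. The range was -0.09 to 0.58 for Cldn3 and -0.47 to 0.84 for F11r. Without 45566B, Cldn4, Cldn7, Ocln, Marveld2 and Tjp3 were under the filter, so leaving out either of the other lines gave -0.11 to 0.01 for Cldn7, -0.01 to 0.08 for Marveld2 and -0.03 to 0.19 for Tjp3. The low end of these 5 ranges came without 47298. With no replicate block for the line, the pairs comparison called 0 genes (17 higher and 41 lower at an unadjusted p under 0.05). The block thus changed no call.

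In the panel comparison the pseudocount of 0.1 called 4 genes, 0 of them members. Leaving out 1 library gave -2.48 to 0.85 for Cldn1, -0.45 to 3.33 for Cldn4 and -0.37 to 1.90 for Tjp3. Without 33373 and 33377 the values turned to -0.09 for Cldn3, -0.56 for Cldn7, -0.24 for Ocln and Marveld2, -0.28 for Tjp3 and -0.38 for F11r. Those of Cldn4 (0.08), Cgn (0.2) and Cldn1 (-0.93) kept their sign.

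Leaving out 1 library gave 0 to 3241 genes and 0 to 9 members in 45566B against 45555, and 0 to 1993 genes and 0 to 9 members in 45566B against 47298. The comparison of 47298 with 45555 called 9 genes with the smaller pseudocount, 2 with the same sum per library, 56 without a Jak1 term and 0 to 651 without 1 library, with 0 to 2 members. There the range was -0.05 to 0.04 for Ocln and -2.01 to 0.49 for F11r. Without the filter Cldn1 was no longer called in 45566B against 45555 (limma, adjusted p = 0.0556, where its other settings began at 0.0294). Depth is unknown beyond relative values, so differences between values under about 0.1 FPKM cannot be read.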
